A study of Mus musculus with 12 samples.

Results

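Glucocorticoid receptor (GR) binding near 34 complement and coagulation genes was described in BWTG3 cells, a mouse hepatoma line, out of 21887 protein-coding genes of the mouse build mm10. The genes were chosen by function, and a GR peak was assigned to a gene when its centre lay inside the gene or within 50 kb of it. These windows held 131 distinct sites of the 47491 nuclear regions that any library called, and each site was counted once. GR was mapped by chromatin immunoprecipitation and sequencing (ChIP-seq) in 11 libraries, and the study asks how the cytokine tumour necrosis factor (TNF) alters GR binding.

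All cells were held without serum for 24 h. The DEX group (3 libraries) was given the synthetic glucocorticoid dexamethasone (Dex) at 1 µM, the TNF group (2 libraries) 1000 U/ml TNF, and the TNFDEX group (3 libraries) TNF 1 h before Dex, with stimulation lasting 3 h in total. The NI group (3 libraries) was taken as untreated because its title names neither agent. The replicates are biological by the series' design text. All groups are the same single cell line, so they stand for one tumour-derived liver cell and not for liver tissue. Peak lists hold no RNA levels, so the label of the cells could not be checked against expression. Of 7 hepatocyte marker genes, 6 to 7 had a GR peak within 50 kb in the DEX libraries. Of 6 macrophage markers 4 to 5 did, and of 6 endothelial and stromal markers also 4 to 5. Of all protein-coding genes 43.2% to 51.2% did, and the presence of such peaks does not tell cell types apart. The summed signal of these peaks in DEX was 801.7 to 1480.4 for the hepatocyte list and 182.9 to 336.5 for the macrophage list. For the endothelial and stromal list it was 252.2 to 349.2. In NI these ranges overlapped, at 15.5 to 85.0, 15.6 to 107.3 and 22.8 to 101.5 in the same order.

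Complement is a cascade of plasma proteases and binding proteins that tags microbes and ends in a pore in their membrane, and it is started by antibody (the classical pathway), by sugar-binding lectins (the lectin pathway) or by slow spontaneous activation (the alternative pathway). Coagulation is a related cascade of proteases that ends in thrombin and fibrin, and protein C, protein S and plasmin restrain or dissolve the clot. Hepatocytes secrete most of these proteins. GR is a nuclear receptor that moves to DNA when it binds a glucocorticoid.

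The 2 promoters found to carry reproducible GR sites, among genes with a matched promoter window, are shown first. The 250 bases before each start are from RefSeq (GRCm38.p6, the assembly of mm10), written 5′ to 3′ on the gene's own strand, which is the minus strand for both. Capitals mark a match to the C/EBP motif TTGCNNAA, searched on both strands. F11 encodes coagulation factor XI, and its promoter (chr8:45262032-45262281) was called in all 6 libraries with Dex. Kng2, which is not among the 34 genes, encodes a second kininogen beside Kng1. Its promoter (chr16:23029102-23029351) was called in all 3 TNFDEX libraries and in none of the others.
F11: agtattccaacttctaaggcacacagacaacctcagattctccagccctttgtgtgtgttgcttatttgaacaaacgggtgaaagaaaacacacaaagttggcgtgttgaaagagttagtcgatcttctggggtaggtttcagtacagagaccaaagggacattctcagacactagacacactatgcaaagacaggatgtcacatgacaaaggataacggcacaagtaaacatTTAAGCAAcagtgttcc
Kng2: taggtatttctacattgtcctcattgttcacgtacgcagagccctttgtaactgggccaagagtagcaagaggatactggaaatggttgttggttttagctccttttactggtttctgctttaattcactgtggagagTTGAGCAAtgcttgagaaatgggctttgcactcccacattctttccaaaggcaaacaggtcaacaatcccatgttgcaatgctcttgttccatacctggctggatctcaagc
The match in the F11 promoter lay 17 bases before the start and 11 to 37 bases from the peak centres of the 6 libraries. In the Kng2 promoter it lay 112 bases before the start and 14 to 56 bases from the 3 peak centres. The promoter of C6 had a peak in TNFDEX 3 alone (8.6), held none of the motifs searched and is not shown. RefSeq promoter windows of 250 bases before to 50 bases after the start were matched for 24 of the 34 genes, giving 26 windows. Of these 26, 8 held the C/EBP motif (C1ra, C1s1, C9, Cpb2, F11, F9, Hpx and Klkb1), against 10.8% of all 32851 windows. No window of these genes held the core of the glucocorticoid response element (searched with its spacer left free), which 0.475% of all windows held. The NF-kB motif was in 0 of 26 (1.63% of all), and the AP-1 motif TGANTCA was in 2 (C8g and F2; 7.81% of all). The HNF4 motif CAAAGTCCA and the HNF1 motif were in 0 of 26, against 0.475% and 0.0609% of all. These matches describe letters and were not tested as binding sites.

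Depth lay between 39228805 and 51141996 tags per library, and the lists held 2524 to 22590 peaks. Signal is given as normalized tag count, which is how many tags the authors found in a peak for every 20000000 tags sequenced. 1 unit was 1.96 to 2.56 tags, so a peak of 10 rests on few tags and carries a large counting error. Where a list has no peak, the level is unknown and is not 0. The libraries fell into a set with much signal on mitochondrial DNA (summed tag count 70983.1 to 108166.1 in NI 3, DEX 3, TNF 2, TNFDEX 2 and TNFDEX 3) and a set with little (1289.9 to 6953.2 in the other 6). The labels give no batch, and the sets were split on this signal alone. Both sets contain every group, with 1 or 2 libraries of it, so values within each are given beside the changes below without a test.

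Of the 34 genes, 30 had at least 1 peak in some library, as did 17542 of all 21887 protein-coding genes. F7, F9, Plg and C8b, which encode factor VII, factor IX, plasminogen and a chain of complement C8, had none in any. The genes stand at 29 loci, because Cfb and C2, C8b and C8a, C1ra and C1s1, F7 and F10, and F11 and Klkb1 are neighbours, and 9 sites fell in more than 1 window. The median gene had 4 sites and C6 had the most, 16. Of the 131 sites, 30 lay inside one of the 34 genes, 49 inside another gene and 52 between genes, and 81 (61.8%) were called in exactly 1 library, against 59.5% of all regions. Dex libraries alone held 76 of the sites (58.0%, against 56.8% of all regions), libraries with and without Dex shared 21 (16.0% against 17.2%), and 34 (26.0% against 26.0%) were called in no Dex library.

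Genes with a peak numbered 12, 19 and 8 in the NI libraries, 18, 19 and 19 in DEX, 14 and 8 in TNF, and 21, 13 and 21 in TNFDEX. The groups overlapped, since NI 2 equalled the highest DEX library and TNFDEX 2 lay below NI 2. As shares of the 34 genes these were 38.2% ± 16.4 for NI (SD, n = 3), 54.9% ± 1.73 for DEX (n = 3), 32.4% ± 12.5 for TNF (n = 2) and 53.9% ± 13.6 for TNFDEX (n = 3). All protein-coding genes gave 29.3% ± 10.9, 46.0% ± 4.51, 33.1% ± 10.8 and 48.1% ± 12.3 by the same count. The listed share was above that of all genes in every library but TNF 2, and the listed genes are longer, with a median span of 21.8 kb against 17.2 kb.

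**Figure D1:**
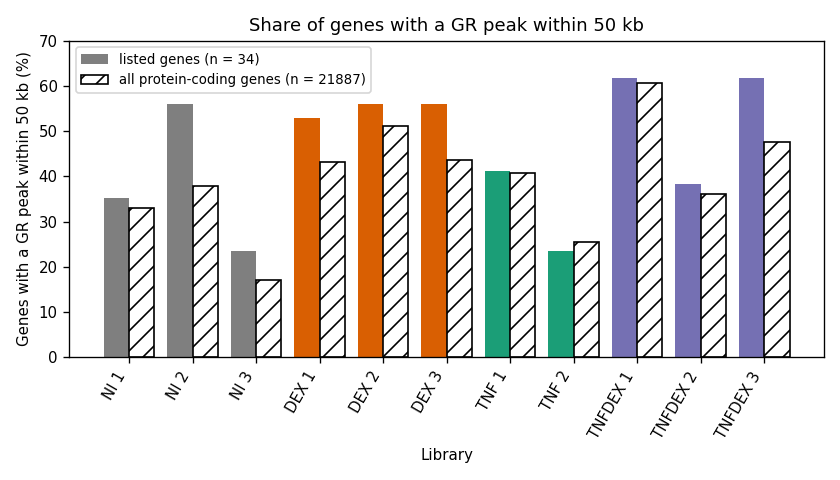
Share of genes with a GR peak within 50 kb (y axis, %) in each of the 11 libraries (x axis), for the 34 listed genes (coloured by group) and for all protein-coding genes (hatched). The listed genes ranged from 23.5% in NI 3 and TNF 2 to 61.8% in TNFDEX 1 and TNFDEX 3, above the hatched bar in every library but TNF 2.

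When a site had to be called in at least 2 libraries of a group, 4 genes had one in NI (F12, Kng1, Mbl2 and Hpx; 11.8%, against 14.8% of all genes). In DEX 16 genes had one (47.1%, against 36.5% of all genes), in TNF only Cpb2 (2.94%, against 6.08%), and in TNFDEX 18 (52.9%, against 39.4%). With 1 library of the group left out, every remaining library had to hold the call, so these numbers could only stay or fall. They were then 0 to 4 in NI, 8 to 11 in DEX and 8 to 17 in TNFDEX. The NI count was 0 when every library of the group had to hold the call. No share of all genes stands beside these stricter counts here, so their fall is not read as particular to the listed genes.

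Few sites separated the groups in every library. Of the 131 sites, 7 were called by 3 of 3 DEX and 0 of 3 NI libraries (5.34%, against 8.03% of all regions), at 6 genes (C1s1, Cfi, F11, Klkb1, Masp1 and Mbl2; 17.6% of the list, against 18.3% of all genes). A further pattern, 3 of 3 TNFDEX and 0 of 2 TNF, fitted 6 sites (4.58%, against 8.34% of all regions) at 7 genes (C8a, Cfi, F11, F5, Klkb1, Kng1 and Masp1; 20.6% of the list, against 19.3% of all genes). All 6 Dex libraries called 6 of the sites (4.58%, against 8.47% of all regions). No site was called by 3 of 3 DEX and 0 of 3 TNFDEX libraries (0.0463% of all regions, near 0.21% of all genes), and none by 2 of 2 TNF and 0 of 3 NI libraries (0.244% of all regions, near 0.996% of all genes).

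The signal of a gene was the sum of the normalized tag counts of its peaks, compared on the scale log2(sum + 10) with limma over the 15657 genes with a peak in at least 2 libraries. Of the 34 genes 29 entered the test, as did 15657 of all 21887 protein-coding genes. F7, F9, Plg and C8b were left out because they had no peak, and Apcs because it had one in 1 library. DEX against NI called 4 of the 29 higher (F11, Klkb1, Masp1 and Mbl2) and 0 lower, where 15.8% of all tested genes were higher and 0.0192% lower. Of the calls over all genes 99.9% were higher. When only the 2522 strongest peaks of each library were kept, 85.6% of the calls were higher (1470 higher and 247 lower of 6845 tested genes). Of the 11 listed genes tested in that setting, 2 were higher (Masp1 and Mbl2) and 1 lower (Kng1). TNFDEX against TNF called the same 4 higher and 0 lower, where 12.7% of all tested genes were higher and 0.147% lower. The median difference of the 29 was 0.49 with Dex alone (0.47 over all tested genes) and 0.73 with Dex after TNF (0.52). The 4 genes stand at 3 loci, since F11 and Klkb1 share their sites.

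**Figure D2:**
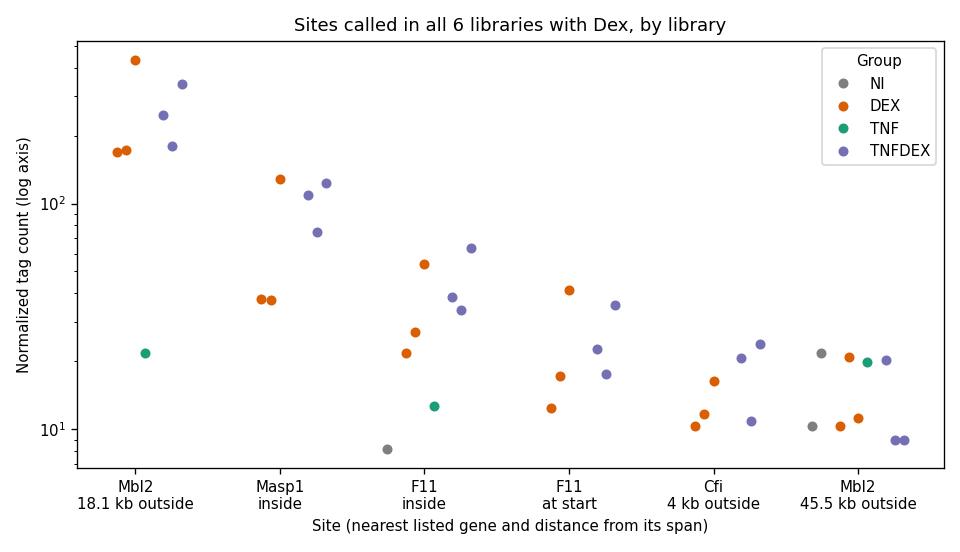
Normalized tag count (y axis, log scale) of the 6 sites called in all 6 libraries with Dex, 1 point per library with a call, coloured by group. The site 18.1 kb from Mbl2 reached 169.1 to 431.7 in DEX, and the site 45.5 kb from Mbl2 was also called in 2 NI libraries.

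The strongest sites within 50 kb of the listed genes were those at Mbl2 and Masp1, genes of the lectin pathway. A gene's strongest site is taken here as the one with the highest tag count summed over the 11 libraries. Mbl2 encodes mannose-binding lectin C, which recognises microbial sugars. Its main site (chromosome 19, 30257631 to 30257957) lay between genes 18.1 kb past the end of Mbl2, its nearest gene. The tag count there was 169.1, 173.3 and 431.7 in the DEX libraries, 246.3, 179.5 and 338.4 in TNFDEX and 21.8 in TNF 1, and the site was not called in TNF 2 or in any NI library. The Dex libraries were thus all far above the single call without Dex, and DEX and TNFDEX overlapped. The site ranked 87, 112 and 32 among all peaks of the 3 DEX libraries and 97, 52 and 59 among those of TNFDEX.

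A further site in the Mbl2 window (chromosome 19, 30187294 to 30187513) lay 45.5 kb from Mbl2 and 12.0 kb from Gldc, its nearest gene. It was weak and did not separate the groups, with 10.4 and 21.7 in NI 1 and NI 2, 10.4, 20.9 and 11.2 in DEX, 19.8 in TNF 1, and 20.3, 9.0 and 9.0 in TNFDEX. The summed signal of Mbl2 was 10.4, 21.7 and 0 in NI, 179.5, 194.2 and 452.4 in DEX, 41.6 and 0 in TNF, and 266.6, 195.1 and 347.4 in TNFDEX, where 0 means no called peak. Each Dex library was above all libraries without Dex that had a call.

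Mbl2 signal rose with Dex by 3.81 on the log2 scale (SE 0.71, limma adjusted p = 0.000871), and by 2.95 and 5.53 within the libraries of low and high mitochondrial signal. It rose with Dex after TNF by 3.59 (SE 0.80, limma adjusted p = 0.00472), and by 2.42 and 4.76 within these sets. That call was lost without TNF replicate 2 (2.40, limma adjusted p = 0.15). With a window of 10 kb Mbl2 had no peak and was not tested. The sums rest on 0.667 peaks and 97 covered bp per NI library, 2.33 and 391 per DEX library, 1 and 146 per TNF library, and 2.33 and 392 per TNFDEX library, with a mean of 16.1, 118, 20.8 and 116 per peak.

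Masp1 encodes a protease that circulates with mannose-binding lectin. Its main site (chromosome 16, 23463607 to 23463790) lay inside the gene. The tag count was 37.7, 37.2 and 128.8 in DEX and 109.1, 74.7 and 123.4 in TNFDEX, and no NI or TNF library had a call there. DEX 3 was the highest of all, and the other DEX libraries lay below every TNFDEX library.

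The summed signal of Masp1 was 0, 17.9 and 0 in NI, 37.7, 63.2 and 128.8 in DEX, 21.3 and 0 in TNF, and 220.4, 74.7 and 150.2 in TNFDEX. Every Dex library was above every library without Dex that had a call. Masp1 signal rose with Dex by 2.48 on the log2 scale (SE 0.66, limma adjusted p = 0.0115), and by 1.82 and 3.79 within the sets of low and high mitochondrial signal. That call was lost without NI replicate 1 (2.23, limma adjusted p = 0.0689), NI replicate 3 (2.23, limma adjusted p = 0.0647) or DEX replicate 3 (2.07, limma adjusted p = 0.097).

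With Dex after TNF, Masp1 rose by 3.05 (SE 0.73, limma adjusted p = 0.00828), and by 2.88 and 3.54 within the sets. The call was lost without TNF replicate 2 (2.22, limma adjusted p = 0.176), TNFDEX replicate 1 (2.72, limma adjusted p = 0.0516) or TNFDEX replicate 3 (2.98, limma adjusted p = 0.0503). Peaks per library averaged 0.667, 1.67, 1 and 4 for NI, DEX, TNF and TNFDEX, over 103, 280, 146 and 688 covered bp, and the mean per peak was 8.95, 45.9, 10.7 and 37.1. Masp2, the partner protease that cleaves C4 and C2, had only single weak calls, and its strongest site (chromosome 4, 148626570 to 148626718, inside Tardbp) was 8.7 in NI 3.

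The contact system starts the intrinsic branch of coagulation, and its F11 and Klkb1 genes lie side by side on chromosome 8. Klkb1 encodes plasma prekallikrein, the precursor of the protease that frees bradykinin. The strongest site (45254206 to 45254409) lay inside F11, 7.72 kb from its start. It was 21.8, 27.0 and 53.8 in DEX, 38.6, 33.6 and 63.3 in TNFDEX, 8.2 in NI 2 and 12.7 in TNF 1, with no call in NI 1, NI 3 and TNF 2. All Dex libraries were above both calls without Dex, and the DEX and TNFDEX libraries overlapped.

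The site at the F11 promoter shown above (45261973 to 45262168) was 12.4, 17.3 and 41.4 in DEX and 22.8, 17.6 and 35.4 in TNFDEX. A further site inside F11 (45253193 to 45253405) was 13.4, 15.3 and 17.7 in DEX and 20.7 and 16.4 in TNFDEX 1 and TNFDEX 3. A site inside Klkb1 (45276251 to 45276452), 18.48 kb from the Klkb1 start, was 8.9, 10.7 and 11.6 in DEX and 7.9 in TNFDEX 1. No library without Dex had a call at these 3 sites.

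**Figure D3:**
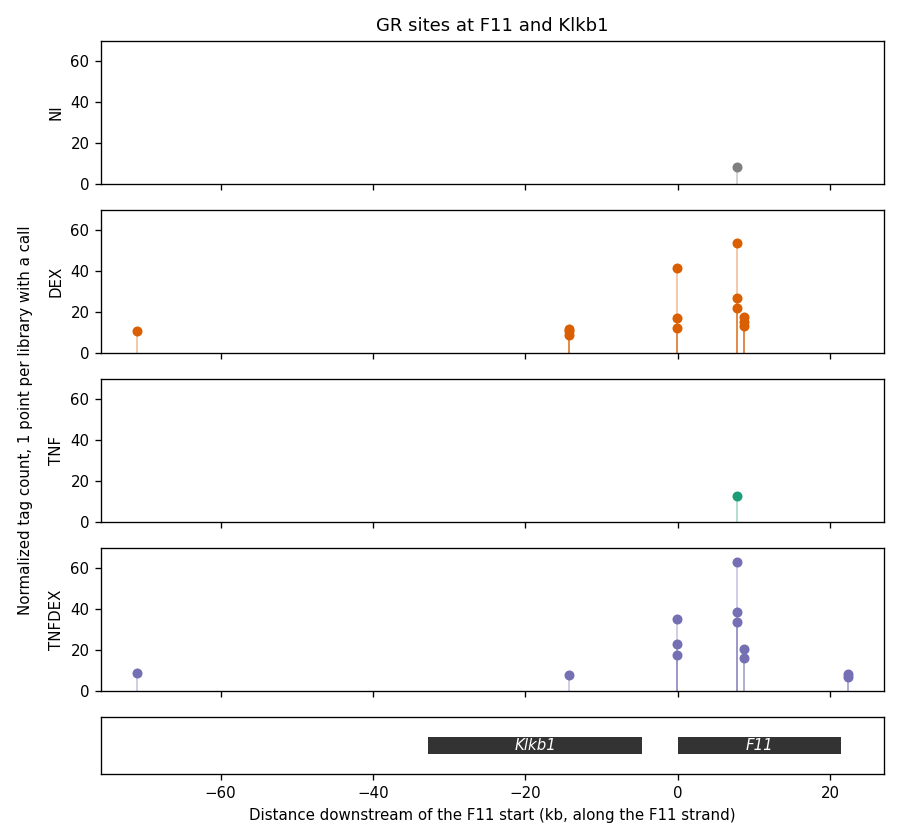
Normalized tag count (y axis) of the sites in the windows of F11 and Klkb1 by distance downstream of the F11 start (x axis, kb), with 1 panel per group, 1 point per library with a call and the 2 genes as bars. The sites inside F11 and at its start carry the highest points, up to 63.3 in TNFDEX, and NI and TNF show 1 point each.

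The summed signal of F11 was 0, 8.2 and 0 in NI, 56.5, 70.3 and 124.5 in DEX, 12.7 and 0 in TNF, and 90.0, 58.2 and 123.3 in TNFDEX. Klkb1 differed only in DEX 2 (81.0) and TNFDEX 1 (99.1), through 1 site in its own window. At both genes every Dex library was above each library without Dex that had a call. F11 rose with Dex by 2.87 on the log2 scale (SE 0.57, limma adjusted p = 0.0015) and Klkb1 by 2.93 (SE 0.57, limma adjusted p = 0.00127). Within the sets of low and high mitochondrial signal F11 was 2.44 and 3.75 and Klkb1 2.53 and 3.75.

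With Dex after TNF, F11 rose by 2.68 (SE 0.64, limma adjusted p = 0.00799) and Klkb1 by 2.73 (SE 0.64, limma adjusted p = 0.00723). The values within the sets were 2.14 and 3.25 for F11 and 2.26 and 3.25 for Klkb1. Both calls were lost without TNF replicate 2 (F11 2.09, limma adjusted p = 0.177; Klkb1 2.14, limma adjusted p = 0.165) and without TNFDEX replicate 3 (F11 2.45, limma adjusted p = 0.059; Klkb1 2.52, limma adjusted p = 0.0551). With the 2522 strongest peaks of each library, both genes lost their calls with Dex (1.69, limma adjusted p = 0.171) and with Dex after TNF (1.86, limma adjusted p = 0.243). Peaks at F11 averaged 0.333, 4, 0.5 and 3.67 per NI, DEX, TNF and TNFDEX library, over 51, 667, 73 and 624 covered bp, with 8.20, 20.9, 12.7 and 24.7 per peak. Klkb1 had 0.333, 4.33, 0.5 and 4 peaks over 51, 723, 73 and 681 covered bp, with 8.20, 20.2, 12.7 and 23.4 per peak.

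The other genes of the contact system gave weaker sites. Kng1 encodes kininogen, the carrier of bradykinin. Its strongest site (chromosome 16, 23107680 to 23107886) lay inside Eif4a2, a translation factor gene, with 19.3 and 16.4 in NI 1 and NI 2, 15.4 and 20.4 in DEX 1 and DEX 2 and 12.3 in TNFDEX 3. NI and DEX overlapped there. The Kng2 promoter site shown above lies 29.0 kb from Kng1 (23029071 to 23029287) and was 14.1, 8.6 and 12.3 in TNFDEX. It was the only one of the 131 sites called in 3 of 3 TNFDEX and 0 of 3 DEX libraries, a pattern found near 1.41% of all genes.

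Summed over its peaks, Kng1 did not pass the test with Dex (0.48, limma adjusted p = 0.696), and it was lower with the same number of strongest peaks in every library (-1.26, limma adjusted p = 0.0303). F12 encodes factor XII, the protease that starts contact activation. Its strongest site (chromosome 13, 55376574 to 55376766) lay 41.3 kb away inside Rgs14. It was 10.4 and 10.6 in NI 1 and NI 2, 13.9 and 15.8 in DEX 1 and DEX 2, 18.8 in TNF 1, and 26.1 and 14.0 in TNFDEX 1 and TNFDEX 3. Every group had a call, the NI values were the lowest, 4 of the 11 libraries had none, and F12 did not pass the test with Dex (0.36, limma adjusted p = 0.77).

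The remaining coagulation factors showed single or weak sites. F5 encodes factor V, the cofactor of the enzyme that makes thrombin. Its strongest site (chromosome 1, 164252633 to 164252854), inside Slc19a2, a thiamine transporter gene, was 17.8, 12.5 and 15.2 in TNFDEX and 15.9 in DEX 3, with no call in the other DEX libraries or in NI and TNF. A site between genes 16.0 kb from F5 (164236144 to 164236334) had the highest single value, 32.3 in DEX 3, with 10.9 in DEX 1 and 14.8 in TNFDEX 3. F10 encodes factor X, the protease that makes thrombin. Its site (chromosome 8, 13104674 to 13104974, inside Pcid2) was 10.6 in NI 2, 13.3 and 14.6 in DEX 2 and DEX 3, and 14.9 and 11.5 in TNFDEX 1 and TNFDEX 3. Calls with Dex were all above the NI call, but 2 of the 6 Dex libraries had none.

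F2 encodes prothrombin, and its strongest site (chromosome 2, 91650210 to 91650364, inside Arhgap1) was called in NI 2 alone, at 13. F13b encodes the carrier chain of factor XIII, which cross-links fibrin, and its site (chromosome 1, 139454969 to 139455209, inside Aspm) was 11.1 in NI 3, 10.1 in TNF 2, and 9.8 and 9.9 in TNFDEX 2 and TNFDEX 3. These 4 libraries all belong to the set of high mitochondrial signal, and its part in the result was not tested.

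Genes that limit or dissolve clots gave 1 strong site. Proc encodes protein C, which inactivates factor V. A site 8.1 kb from Proc, its nearest gene (chromosome 18, 32147602 to 32147798), was 36.9 in TNFDEX 1 and 34.5 in TNFDEX 3 and was not called in TNFDEX 2 or in any DEX, NI or TNF library. Summed signal at Proc was 6.9, 0 and 0 in NI, 0, 13.3 and 0 in DEX, 9.1 and 0 in TNF, and 48.9, 11.3 and 34.5 in TNFDEX. TNFDEX 2 was below DEX 2, so the groups overlapped, and TNFDEX against DEX did not pass the test (1.53, limma adjusted p = 1).

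Pros1 encodes protein S, the cofactor of protein C, and its site (chromosome 16, 62846667 to 62846924, inside Arl13b) was 9.2 in NI 2, 8.6 in TNF 1 and 10.4 in TNFDEX 1. Cpb2 encodes a carboxypeptidase that slows fibrinolysis, and its only site (chromosome 14, 75197756 to 75197962) lay 44.4 kb away inside Lcp1. The site was 10.6 in NI 2, 10.7 in DEX 2, 7.6 and 7.3 in TNF, and 12.4 and 7.4 in TNFDEX 1 and TNFDEX 3. It made Cpb2 the only listed gene with a site called in both TNF libraries, and the lowest values were those of TNF and TNFDEX 3.

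The adhesive proteins vitronectin (Vtn) and fibronectin (Fn1) had weak sites inside the window. The strongest at Vtn (chromosome 11, 78550535 to 78550762, inside Tmem97) was 14.0 in NI 2, 12.4 and 14.3 in DEX 1 and DEX 2 and 17.0 in TNFDEX 1. A site 19.8 kb from Vtn inside Poldip2 (78521987 to 78522182) was 18.5 in DEX 3 and 12.7 in TNFDEX 3, with no other call. Fn1 had no NI or TNF peak, sums of 8.4, 9.7 and 9.0 in DEX, and 35.3 in TNFDEX 1. Neither gene passed the test with Dex (Vtn 0.60, limma adjusted p = 0.619; Fn1 0.93, limma adjusted p = 0.265).

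The limit of 50 kb left out strong sites near these 2 genes and C4bp. A site 70.7 kb from Fn1, which is still its nearest gene (chromosome 1, 71723860 to 71724097), was 87.7, 130.0 and 156.8 in DEX, 172.5, 67.3 and 154.2 in TNFDEX, 9.9 and 16.9 in NI 1 and NI 2, and 29.4 and 13.8 in TNF. A site 72.9 kb from Vtn (chromosome 11, 78575109 to 78575345) lay inside Nlk and was 191.9, 228.4 and 349.8 in DEX and 267.1, 151.3 and 308.4 in TNFDEX, against 8.4 and 15 in NI 1 and NI 2 and 23.8 in TNF 1. A site 76.1 kb from C4bp (chromosome 1, 130737628 to 130737826) lay inside AA986860 and was 59.5, 78.0 and 124.9 in DEX and 133.1, 52.8 and 116.4 in TNFDEX, with no call without Dex. At the Fn1 and Vtn sites all Dex libraries were above every call without Dex. Libraries without a call cannot be ranked.

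The classical pathway begins with C1q, which binds antibody and activates the proteases C1r and C1s. C1s1, a gene of C1s, had 7 sites. The one called in all 3 DEX libraries (chromosome 6, 124584977 to 124585173) lay 42.7 kb away and 4.0 kb from C1rb, its nearest gene, at 12.4, 18.4 and 21.1 in DEX and 23.6 and 14.0 in TNFDEX 1 and TNFDEX 3. No NI or TNF library had a call there. The summed signal of C1s1 was 0, 20.3 and 0 in NI, 48.5, 62.7 and 21.1 in DEX, 34.5 and 0 in TNF, and 103.7, 0 and 28.8 in TNFDEX.

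For C1s1 all DEX libraries were above the single NI library with a call, DEX 3 by little. TNFDEX 2 had no peak, and DEX against NI did not pass the test (1.82, limma adjusted p = 0.131). With the set of low or high mitochondrial signal as a term, 5 listed genes were called in this comparison, the fifth being C1s1. C1ra, a gene of C1r, had its strongest site (chromosome 6, 124484944 to 124485164, 8.1 kb from C1rl) at 8.7 in NI 2, 8.4 and 11.2 in DEX 1 and DEX 2, and 10.0 and 7.8 in TNFDEX 1 and TNFDEX 3. C1qa, a chain of C1q, had only single calls, at most 7.9 (TNFDEX 1, chromosome 4, 136924666 to 136924838).

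C4b and C2 encode the proteins that form the C3 convertase of the classical and lectin pathways, and Cfb encodes factor B of the alternative pathway. C4b had a sum of 21.1 in DEX 3 and 7.8 in TNF 2 and no other peak. C2 had 10.4 and 11.7 in DEX 1 and DEX 2, 10.1 in TNF 2 and 14.8 in TNFDEX 3. The peaks in TNF 2 and TNFDEX 3 were also the only peaks of the neighbour Cfb. None of the 3 genes had a peak in NI, and none had a site called in 2 libraries of a group.

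The regulators of complement included 1 reproducible site. Cfi encodes factor I, the protease that inactivates C3b and C4b. The site (chromosome 3, 129879269 to 129879457) lay 4.0 kb from Cfi inside Pla2g12a and was 10.4, 11.7 and 16.4 in DEX and 20.7, 10.9 and 23.8 in TNFDEX, with no call in NI or TNF. Summed over its peaks, including one of 7.3 in NI 3, Cfi did not pass the test with Dex (1.14, limma adjusted p = 0.202) or with Dex after TNF (1.74, limma adjusted p = 0.0716). With the set of low or high mitochondrial signal as a term, 5 listed genes were called in the latter comparison, the fifth being Cfi. C4bp, which encodes the cofactor of factor I for C4b, had a peak of 6.9 in DEX 1 and one of 6.4 in NI 1 within 50 kb.

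The terminal proteins C6, C8 and C9 build the membrane pore. C9 had its strongest site (chromosome 15, 6493867 to 6494105) inside the gene, at 14.3 and 39.2 in DEX 2 and DEX 3 and 25.7 and 24.3 in TNFDEX 1 and TNFDEX 3, and none without Dex. C6 had its strongest site (chromosome 15, 4678623 to 4678834) 48.3 kb away, with C6 as the nearest gene, at 16.8 in DEX 3 and 29.9 and 14.4 in TNFDEX 1 and TNFDEX 3. Another site 36.7 kb from C6 (4840655 to 4840845) had the highest single value, 33.6 in DEX 3, with 25.7 in TNFDEX 1. These sites were called only in libraries with Dex, but not in all of them.

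C8a had a site inside Fyb2 (chromosome 4, 104891748 to 104891973), 15.4 kb away, at 7.9 and 17.7 in DEX 1 and DEX 3 and 7.1, 14.5 and 20.1 in TNFDEX. C8g had sums of 22.4 in DEX 3, 15.8 in TNFDEX 1 and 13.6 in TNFDEX 3. Summed over its peaks, C9 was 7.4, 0 and 17.4 in NI and 22.8, 30.1 and 63.3 in DEX. It was 39.0 and 0 in TNF and 63.1, 0 and 24.3 in TNFDEX, so values with and without Dex overlapped. With Dex alone the differences were 1.45 for C9, 0.54 for C6, 0.77 for C8a and 0.57 for C8g (limma adjusted p = 0.214, 0.691, 0.419 and 0.541). With Dex after TNF they were 0.40, 1.92, 0.98 and 0.87 in the same order (limma adjusted p = 0.812, 0.114, 0.335 and 0.342). None passed the test.

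Of the plasma proteins outside both cascades, Hpx encodes the haem carrier hemopexin. Its site (chromosome 7, 105618938 to 105619181, inside Trim3) was 12.9 and 8.2 in NI 1 and NI 2, 8.9 and 9.7 in DEX 1 and DEX 2 and 13.2 in TNF 1, so that NI and DEX overlapped. Apcs, the gene of serum amyloid P, had 1 peak, of 6.8 in NI 2 (chromosome 1, 172859977 to 172860131).

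**Figure D4:**
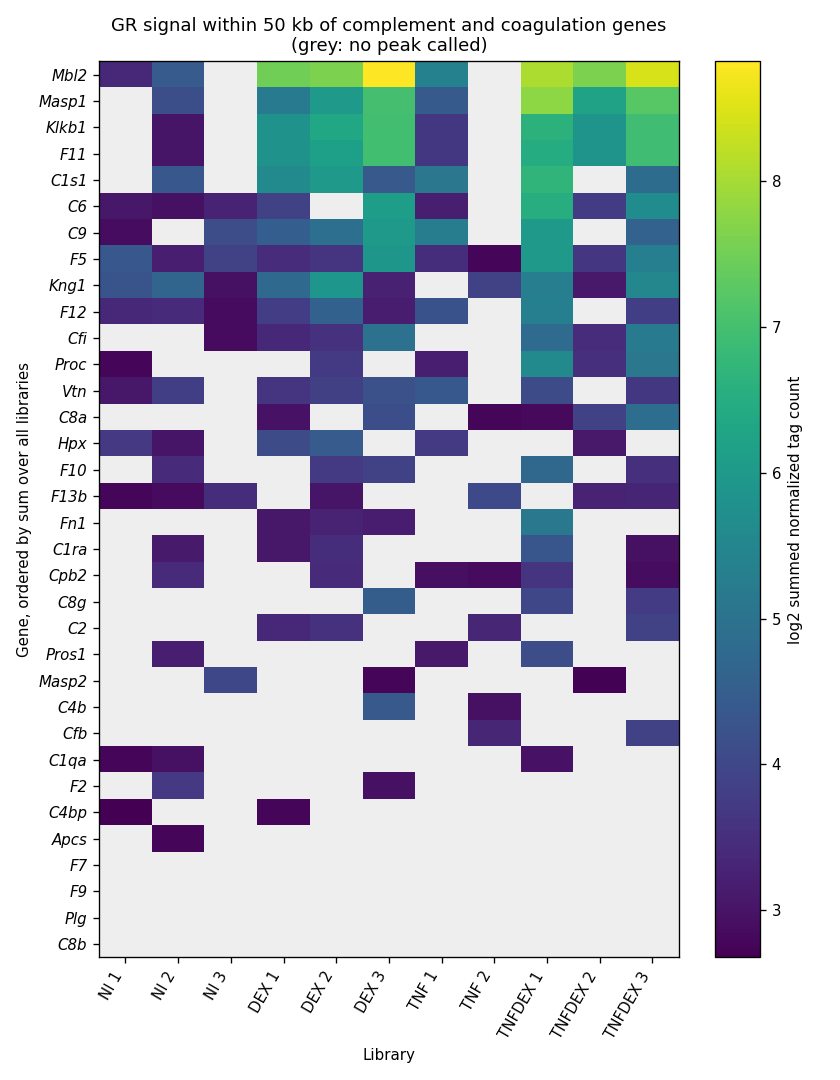
Summed normalized tag count within 50 kb of each of the 34 genes (rows, ordered by their total) in each library (columns), coloured on a log2 scale, with grey for no called peak. Mbl2, Masp1, Klkb1 and F11 stand at the top with signal in all 6 libraries with Dex, and F7, F9, Plg and C8b are grey throughout.

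The effect of TNF was tested without and with Dex. TNFDEX cells had TNF 1 h before Dex within the same total of 3 h, so their time in Dex may have been shorter than in DEX. In TNFDEX against DEX and in the difference of Dex effects, this cannot be told apart from TNF. TNF against NI called 0 of the 29 genes in limma, with 0 at an unadjusted p under 0.05 (0.0% of all tested genes called, 222 of 15657 at that unadjusted p). TNFDEX against DEX called 0, with 1 gene at an unadjusted p under 0.05 (0.0% of all tested genes called, 619 at that unadjusted p). Within the sets of low and high mitochondrial signal it was 0.45 and -0.5 for F11, 0.49 and -0.5 for Klkb1, 1.96 and -0.25 for Masp1, and 0.49 and -0.77 for Mbl2. The low set holds 1 TNFDEX and 2 DEX libraries and the high set 2 TNFDEX and 1 DEX. The groups thus differ in this signal too, and its part was not tested. The difference between the Dex effects with and without TNF called 0, with 0 at an unadjusted p under 0.05 (0.0% called, 275 at that p). Among the 4 genes called with Dex, this difference was -0.19 (SE 0.86) for F11, -0.21 (SE 0.86) for Klkb1, 0.57 (SE 0.98) for Masp1 and -0.23 (SE 1.07) for Mbl2. With such errors a change of several fold would not have been detectable.

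Levels at single sites gave a closer comparison of TNFDEX with DEX, over the 4022 regions called in all 6 libraries. The 6 sites of the listed genes among them had 0 calls in limma and 0 at an unadjusted p under 0.05 (0.0497% of the regions were higher and 0.0% lower, and 272 reached that unadjusted p). The Masp1 site differed by 0.69 on the log2 scale (SE 0.36, limma adjusted p = 0.768), the Mbl2 site at 18.1 kb by -0.06 (SE 0.30), that at 45.5 kb by -0.33 (SE 0.37), the Cfi site by 0.34 (SE 0.25), the site inside F11 by 0.32 (SE 0.33) and the F11 promoter by 0.09 (SE 0.37). No site of these genes was called in all 6 NI and DEX libraries, so the Dex effect on them was not tested at single sites (12.4% of the 178 regions so called were higher and 2.25% lower).

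A wider list of 49 complement and coagulation genes outside the 34, including receptors, inhibitors and fibrinogen, gave 48 genes in the table (C4a was not matched) and 41 in the test. Some of these genes repeat sites of the 34. Proz had the same sums as F10, C1rl the same as C1ra, and C1qb and C1qc the same as C1qa. DEX against NI called 3 of the 41 higher (C1s2, Cd59a and Vwf) and TNFDEX against TNF 4 (Cd46, Cd59a, Procr and Vwf), and 0 were lower in either, where 15.8% and 12.7% of all tested genes were higher. Their medians were 0.68 and 0.99, against 0.47 and 0.52 over all tested genes. Vwf encodes von Willebrand factor, which tethers platelets. Its sums were 0, 10.6 and 0 in NI, 111.6, 158.0 and 224.4 in DEX, 34.5 and 0 in TNF, and 295.2, 177.2 and 349.5 in TNFDEX.

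All 6 Dex libraries were above every other library with a call at Vwf. The difference was 3.73 with Dex (SE 0.65, limma adjusted p = 0.000514) and 3.70 with Dex after TNF (SE 0.73, limma adjusted p = 0.00196). Cd59a encodes an inhibitor of the membrane pore and had sums of 90.2, 99.9 and 77.5 in DEX and 133.1, 45.8 and 111.8 in TNFDEX, against 6.8 in NI 2 and no other call (Dex 3.05, SE 0.55, limma adjusted p = 0.000666). C1s2, a second C1s gene, averaged 81.5 in DEX and 6.60 in NI (2.66, SE 0.74, limma adjusted p = 0.0156). Its window overlaps that of C1s1 and shares sites with it, so their signals are not independent. The C1s1 site called in all 3 DEX libraries (124584977 to 124585173) is among them. Cfd encodes factor D, the protease that cleaves factor B, and had signal with and without Dex. It averaged 131 (NI), 148 (DEX), 140 (TNF) and 132 (TNFDEX), but the libraries differed widely. The sums were 127.2, 266.7 and 0 in NI and 114.1, 225.3 and 105.5 in DEX, where 0 means no called peak. They were 254.5 and 25.2 in TNF, and 236.8, 41.1 and 119.2 in TNFDEX. Cfd did not pass the test with Dex (1.05, SE 1.01, limma adjusted p = 0.602).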

How the data were processed

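The submitters' processing notes name CASAVA 1.8, Bowtie 1.0.0, HOMER 4.6 and the build mm10, and for the handling of duplicate reads nothing was given in the sources used. Per the file headers, the authors called peaks with HOMER findPeaks library by library against 1 input, at a false discovery rate of 0.001 and with a 4-fold excess of tags over the input and over the 10000 bp around the peak. The deposited signal is the normalized tag count per 20000000 tags. The deposited ratio is the fold of a peak over the input, used only to filter peaks. The input sample was not analysed here.

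Peaks sharing at least 1 bp were merged into regions, and those on mitochondrial DNA were left out. Genes were the protein-coding genes of a RefSeq table of GRCm38.p6, without exons, so introns and exons were not told apart. Summed signals per gene, on log2(sum + 10), were tested with limma 3.58.1 in R 4.3.3 over all 11 libraries, for genes with a peak in at least 2, with Benjamini-Hochberg adjustment at 0.05. Site levels were tested with limma on log2 tag counts, scaled by the trimmed mean of M values, at regions called in every library of both groups. A sum over called peaks moves with the number called, and the added 10 understates differences of low genes. Contrasts with a group in common share its libraries: DEX against NI and TNF against NI share NI, and both TNFDEX contrasts share TNFDEX. Calculations otherwise used Python 3.11.15, numpy 2.4.6, pandas 2.3.3 and matplotlib 3.10.9.

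The genes, the wider list and the tests were chosen with earlier results of these data known. Genes were given in every library when they passed a test, had a site called in every library of a group or had a peak in NI, with their strongest site, and other sites when called in all 3 libraries of DEX or TNFDEX. Of the wider list, the 4 genes with the highest mean in DEX and in TNFDEX were described. The sites beyond 50 kb were picked after their values were seen. Alternatives covered the window, the added constant, filters, scaling, the number of peaks, the set of mitochondrial signal and the replicates.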

Additional observations from a re-analysis of the deposited data

How the results depend on the processing

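The summed signals depended most on the window and on single libraries. With a window of 100 kb, 7 of 33 tested listed genes were higher in DEX than in NI (3842 of all 17971 tested genes were called) and 9 in TNFDEX than in TNF (2902 of 17971), adding Vtn, Fn1 and C4bp in both and Proc and Cfi in the latter. At 50 kb 2479 and 2005 of 15657 genes were called, and at 10 kb 1190 and 1089 of 9671. At 10 kb 12 listed genes entered the test, and 3 (F11, Klkb1 and Masp1) were called higher in each Dex comparison. Mbl2 had no peak within 10 kb, since its nearest site lay 18.1 kb away. Leaving out 1 library at a time gave 3 to 5 listed genes for DEX against NI and 0 to 7 for TNFDEX against TNF, 0 without TNF replicate 2, 1 without TNFDEX replicate 3 and 7 without TNFDEX replicate 2, with 1371 to 2982 and 636 to 3612 calls over all genes. With the same number of strongest peaks in every library, 2 of the 11 listed genes tested were higher in TNFDEX than in TNF (1577 of 6845 genes called). Of all tested genes, 46 differed between TNFDEX and DEX. Kng1 with Dex was -1.26 with that number of peaks (limma adjusted p = 0.0303), -0.17 with peaks at least 8-fold over input and -0.13 when scaled by regions called in all 11 libraries; the cause was not tested. With the set of mitochondrial signal as a term, 5 listed genes were called in each Dex comparison. This added C1s1 in DEX against NI and Cfi in TNFDEX against TNF, with 3310 and 3038 calls over all genes. With the replicate number as a block, 4 listed genes were called in each Dex comparison and 0 in the others (2408 and 1492 calls over all genes with DEX against NI and TNFDEX against TNF), so the block changed no call of a listed gene. Correlations of the deviations of libraries with the same number ran from -0.356 (NI 2 and TNF 2) to 0.347 (TNF 2 and TNFDEX 2), and not every pair was above 0.1, so the numbers were not taken to pair the libraries. Listed genes with a called site numbered 0 in NI, 6 in DEX and 8 in TNFDEX when every library had to hold it (0.0%, 17.6% and 23.5%, against 1.62%, 23.7% and 24.1% of all genes), and 24, 26 and 20 in NI, DEX and TNF when 1 was enough (70.6%, 76.5% and 58.8%, against 53.9%, 64.3% and 49.9%). For NI, DEX, TNF and TNFDEX in turn they numbered 0, 5, 0 and 8 at 10 kb (0.0%, 14.7%, 0.0% and 23.5%, against 7.18%, 18.7%, 2.81% and 20.1% of all genes), 8, 25, 2 and 28 at 100 kb (23.5%, 73.5%, 5.88% and 82.4%, against 22.8%, 51.8%, 9.59% and 55.4%), and 2, 4, 0 and 4 with the same number of strongest peaks (5.88%, 11.8%, 0.0% and 11.8%, against 10.6%, 12.4%, 3.21% and 11.9%). With peaks at least 8-fold over input they numbered 9 in DEX (26.5%, against 26.1%). With 1 library of the group left out, every remaining library had to hold the call, so the counts could only stay or fall. They were then 0 to 4 in NI, 8 to 11 in DEX and 8 to 17 in TNFDEX. This could not be done in TNF, where 1 library would be left. No share of all genes stands beside these leave-out counts, so their fall is not read as particular to the listed genes. The comparisons with 0 called listed genes had 0 under every alternative run. Weak peaks hold few tags, so a missing call at this depth does not show absence of binding.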
